A study of Mus musculus with 333 samples.

Results

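Astrocytes of 2 brain regions of the same age were compared: 16 cells labelled Astrocyte from the thalamus and 21 from the visual cortex of wild-type mice at postnatal day 12 (P12). They were 37 of the 333 single cells of the series, chosen by the submitters' cell type label and by the region in the cell title, out of 21 thalamic and 60 visual cortex cells of that age. Cells had been enriched by FACS and captured on a Fluidigm C1 device, and their polyA RNA was amplified with the SMARTer kit. The design text gives 5 mice for each age, and no label ties a cell to a mouse, so each region is 1 sample and the differences below have no replicate check, no test and no p-value. The thalamic astrocytes also carry cell IDs from 1611 to 1634, except thalamus cell 21 at 1684. Those of the visual cortex run from 1752 to 1828. Region and anything shared within these ranges of IDs therefore cannot be told apart.

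Astrocytes clear glutamate and GABA, take up potassium, move water at their vascular endfeet and supply lipids and lactate. They descend from local radial glia and keep part of the transcription factor code of the region in which they were born. The cerebral cortex is telencephalon, patterned by factors such as Lhx2 and the Emx pair, and the thalamus is diencephalon.

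Totals per cell were 752075 to 1728561 reads (median 1125164) in thalamus and 374574 to 2315228 (median 1089545) in visual cortex, with 1884 to 4354 and 1660 to 4629 genes detected. A level is the share of a gene in the summed reads of a region, in counts per 1000000 reads (CPM), which is not corrected for gene length. Log2 ratios are thalamus over visual cortex with 1 CPM added to each, so they understate the change of low genes. A gene was measured when it reached 10 CPM in either region (8995 genes), and higher or lower means at least 2-fold. The span after a log2 ratio or a list's median is its lowest and highest value when each of the 37 cells is left out in turn. Numbers of cells in which a gene was read refer to libraries thinned to 350000 reads, which kept all 37 cells. Without thinning, the 520 measured genes of the lists and the naming rule were read in 0 more cells at the median and in at most 6 more in either region. Intervals are exact Clopper-Pearson 95% intervals of shares of cells and cover counting error only. They treat cells as independent draws, although no label ties a cell to a mouse. Reads without molecular identifiers are not independent molecules either.

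Many genes passed 2-fold between these small sets of cells. Of the measured genes, 2527 (28.1%) were higher and 3159 (35.1%) lower in thalamus, with a median log2 ratio of -0.13. Whichever cell was left out, 891 (9.91%) stayed higher and 1628 (18.1%) stayed lower. These percentages are the background for the counts of list members below. Between the closest pair of the 37 cells, Pearson's r over 22074 genes on the log2(CPM + 1) scale was 0.475, so no cell appeared to duplicate another. The median correlation was 0.386 between thalamic cells, 0.367 between visual cortex cells and 0.373 across regions.

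Most cells labelled Astrocyte had most astrocyte markers, but a few had far fewer. The fewest were in visual cortex cells 12 (13 of 30), 4 (16) and 58 (21) and in thalamus cell 17 (18). Visual cortex cells 12 and 4 recur below, for Emx1 and for proliferation genes. Summed marker levels per cell went down to 18138 CPM in thalamus (median 89280) and 10930 CPM in visual cortex (median 89708). All 30 astrocyte markers were measured and a thalamic cell had a read of 18 to 30 of them (median 28), a visual cortex cell of 13 to 30 (median 28). The gap junction gene Gja1 and the fate factor Sox9 were read in 16 of 16 and 21 of 21 cells. Neuronal Slc17a7, endothelial Cdh5 and myelin Mog had no read in any of the 37 cells. At least 1 marker of another class was read in many cells after thinning. Newly formed oligodendrocyte markers were read in 15 of 16 thalamic and 19 of 21 visual cortex cells, with median summed levels of 40.59 and 297.6 CPM. Myelin markers were read in 12 and 14 cells (medians 191 and 19.4 CPM) and microglia markers in 6 and 15 cells. Their part in the results was not tested. Some cells had far more of 1 class. Visual cortex cell 24 had all 12 microglia markers, with P2ry12 at 4564 CPM. Visual cortex cell 33 had 7 of them and cell 46 had 4, and visual cortex cells 33 and 51 had P2ry12 at 739 and 162 CPM. Thalamus cell 5 had 7 of 8 ependymal markers, against 0 or 1 in every other cell, and visual cortex cell 58 had Dcx at 2722 CPM and Gad1 at 152 CPM. Cells were also scored against the medians of neurons, microglia, endothelial cells, oligodendrocyte precursors, newly formed oligodendrocytes and myelinating oligodendrocytes. Ependymal, mural and leptomeningeal markers were not scored, so thalamus cell 5 could not be picked out this way. In 4 cells the markers of another class reached 25% of that class's median (thalamus cells 7 and 16, visual cortex cells 24 and 58). Visual cortex cell 12 fell just short, at 24.71% of the neuron median. The closing section gives the counts without the 4 cells. In the 2 thalamic cells the neuron marker concerned was Reln, a secreted matrix protein, at 1483 and 568 CPM, and neither cell had a read of Snap25, Syt1 or Stmn2. Reln was read in 7 of 16 thalamic and 1 of 21 visual cortex cells (191 against 7.64 CPM, log2 ratio 4.47, span 3.59 to 7.58).

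Transcription factors of the telencephalon were lower in thalamus as a group. Of 14 measured factors, 12 were lower in thalamus and none was higher (median log2 ratio -4.65, span -4.78 to -4.03, and -6.49 with the 7 members that had no thalamic read set at the limit of 3 reads). With 10 CPM added to each region in place of 1 CPM, the median was -1.99. After leaving out any one cell 11 were still lower. A thalamic cell had a read of 1 to 5 of the 18 listed factors (median 3) and a visual cortex cell of 3 to 14 (median 7).

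The upstream 250 bases of 2 of these factors, and of 2 genes that were higher in thalamus, are shown because they sit on opposite sides of the comparison. They come from the RefSeq promoter table (GRCm38.p6) and run 5′ to 3′ up to the base before the start site, with the TATA motif TATAAA (searched on both strands) in capitals. Emx1 lies at chr6:85187681-85187930 (plus strand) and Emx2 at chr19:59458440-59458689 (plus strand). Agt lies at chr8:124569707-124569956 (minus strand) and Slc6a11 at chr6:114130991-114131240 (plus strand).
Emx1: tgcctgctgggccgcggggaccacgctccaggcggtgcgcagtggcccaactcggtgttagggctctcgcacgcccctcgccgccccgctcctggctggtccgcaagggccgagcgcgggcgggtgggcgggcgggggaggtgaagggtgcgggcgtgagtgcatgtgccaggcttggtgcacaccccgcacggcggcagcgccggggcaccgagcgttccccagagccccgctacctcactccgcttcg
Emx2: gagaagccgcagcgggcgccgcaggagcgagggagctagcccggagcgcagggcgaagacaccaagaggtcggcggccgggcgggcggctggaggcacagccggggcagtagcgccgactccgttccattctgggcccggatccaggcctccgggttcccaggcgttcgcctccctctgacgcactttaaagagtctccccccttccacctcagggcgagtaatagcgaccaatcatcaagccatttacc
Agt: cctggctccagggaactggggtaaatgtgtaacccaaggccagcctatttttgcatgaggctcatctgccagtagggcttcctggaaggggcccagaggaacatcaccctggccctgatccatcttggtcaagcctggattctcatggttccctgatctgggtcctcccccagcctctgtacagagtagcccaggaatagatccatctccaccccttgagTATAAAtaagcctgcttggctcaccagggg
Slc6a11: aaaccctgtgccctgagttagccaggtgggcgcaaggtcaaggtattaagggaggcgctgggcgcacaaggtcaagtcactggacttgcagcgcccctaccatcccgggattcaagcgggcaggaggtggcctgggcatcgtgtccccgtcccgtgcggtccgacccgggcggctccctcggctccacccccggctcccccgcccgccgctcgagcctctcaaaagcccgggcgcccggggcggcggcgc
The motif was found in Agt, as in 12.4% of the 32851 promoters of the table. The Agt window holds 0 CpG dinucleotides at 55.6% GC, whereas Emx1 holds 30, Emx2 holds 24 and Slc6a11 holds 25, against a median of 6 over all promoters. The 2 genes higher in thalamus differ in this composition. A match or its absence is a description of these letters only.

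Lhx2, a LIM homeobox factor of cortical progenitors, was at 0.107 against 73.1 CPM, with a single thalamic cell above 0 in the unthinned counts (thalamus cell 5, 1.91 CPM) and visual cortex cells between 0 and 447 CPM (median 13.8). It was read in 0 of 16 against 13 of 21 cells. Counting Lhx2, Emx1, Emx2, Otx1, Fezf2 and Dmrta2 together, 20 of 21 visual cortex cells (95.2%, 76.2 to 99.9%) and 0 of 16 thalamic cells (0 to 20.6%) had a read of at least 1 of the 6. At least 2 of them were read in 11 visual cortex cells (52.4%, 29.8 to 74.3%) and no thalamic cell. Without thinning, 1 thalamic cell had 1 and 14 visual cortex cells had at least 2. These combinations were chosen after the values were seen.

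The other cortical factors were present in fewer cells. Otx1 was read in 0 of 16 against 9 of 21 cells (57.8 CPM in visual cortex, at least 359-fold lower in thalamus against the limit of 3 reads over the region), Emx2 in 0 against 8 (17.2 CPM), Dmrta2 in 0 against 6 (16.6 CPM), Fezf2 in 0 against 5 (38.5 CPM) and Emx1 in 0 against 4 (82.4 CPM). Emx1 was highest in 1 cell, at 830 CPM, and the log2 ratio was -4.78 without visual cortex cell 12 against -6.38 with it. Dmrt3 was read in visual cortex cell 7 only. Nr2e1 (Tlx), a nuclear receptor of neural progenitors, was read in 1 of 16 against 8 of 21 cells (0.376 against 107 CPM, log2 ratio -6.29, span -6.75 to -5.65). Other factors were read in both regions. Pax6 was read in 6 of 16 against 16 of 21 cells (29.8 against 134 CPM, log2 ratio -2.14, span -4.21 to -1.70) and Nr2f1 in 7 of 16 against 19 of 21 (60.7 against 192.5 CPM, log2 ratio -1.65, span -2.88 to -1.32). Id2 and Zbtb20 were within 2-fold and were read in most cells of both regions (log2 ratios 0.54 and -0.72).

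**Figure D1:**
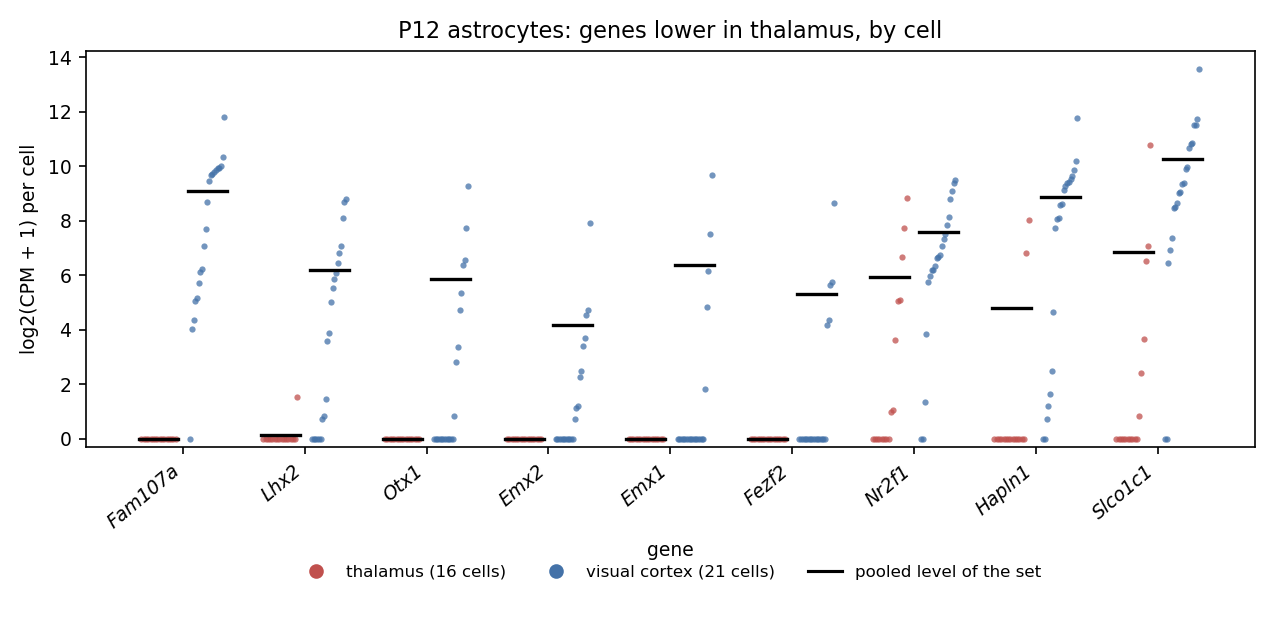
Each point is 1 cell, placed by its log2(CPM + 1) for the gene on the x axis (red, 16 thalamic cells; blue, 21 visual cortex cells), and the black bar is the pooled level of the region. Fam107a, Otx1, Emx2, Emx1 and Fezf2 lie at 0 in every thalamic cell, while Hapln1 and Slco1c1 are above 0 in a few.

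Genes listed for telencephalic astrocytes went the same way, and share members such as Lhx2 and Emx2 with the factors above. Of 11 measured, 8 were lower and 1 higher (median log2 ratio -2.0, span -4.19 without thalamus cell 9 to -1.23). Fam107a, an actin-associated protein known from astrocytes and radial glia, separated the regions almost cell by cell. It had no read in 16 thalamic cells and ran from 0 to 3612 CPM (median 409.7) in visual cortex, where 20 of 21 cells had it (95.2%, 76.2 to 99.9%). Only visual cortex cell 4 lacked it, and the pooled level was 0 against 552 CPM, at least 3425-fold lower. Chrdl1, a secreted BMP antagonist that promotes synapse maturation, was read in 0 of 16 against 9 of 21 cells (0 against 112 CPM, at least 696-fold lower). Mfge8 (2996 against 4080.0 CPM) and Il33 (299 against 164 CPM) were within 2-fold. Grm5, the metabotropic glutamate receptor 5 gene, was the member that was higher, at 544 against 8.15 CPM (log2 ratio 5.90, span 4.97 to 7.10), with a read in 7 of 16 thalamic and 4 of 21 cortical cells.

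Factors of the diencephalon and of more caudal brain had no common direction. Of 11 measured, 4 were higher and 6 lower (median log2 ratio -2.20), and the median was 0.00 without visual cortex cell 58, 0.71 without the 5 visual cortex cells with a read of Mki67 and 0.79 with no minimum level. The 2 most broadly read members were Tcf7l2, the Wnt pathway factor of thalamic development, in 16 of 16 against 18 of 21 cells (781 against 403 CPM, log2 ratio 0.95, span 0.55 to 1.11, and 1.03 with edgeR's TMM factors), and Rora, a nuclear receptor, in 10 of 16 against 10 of 21 (283 against 131 CPM, log2 ratio 1.10, span 0.72 to 1.63). Meis1, a homeobox factor, was at 516 against 132 CPM (log2 ratio 1.96, span 1.37 to 2.55). Its relative Meis2 went the other way, at 21.3 against 143 CPM (log2 ratio -2.69, span -3.55 to -2.24), with a read in 4 of 16 thalamic and 14 of 21 cortical cells. Pax3 and Otx2, factors of dorsal neural tube and midbrain, were read in 4 and 3 thalamic cells and in no visual cortex cell, at 39.4 and 11.5 CPM.

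Of the 12 genes listed for astrocytes outside the telencephalon, 8 were higher and 2 lower in thalamus (median log2 ratio 1.40, span 1.26 to 1.70), 7 of the 8 whichever cell was left out. Without the visual cortex cells with a read of Mki67 the median was 1.00. Agt, the angiotensin precursor (chromosome 8, 124556587 to 124569706), had thalamic cells from 0 to 6332 CPM with a median of 1468 and visual cortex cells from 0 to 1999.9 CPM with a median of 0. The regions overlapped, yet 14 of 16 thalamic against 9 of 21 visual cortex cells had a read, and the log2 ratio was 3.02 (span 2.81 to 3.60). Igsf1, an immunoglobulin superfamily membrane protein on chromosome X (49782536 to 49797907), ran from 0 to 6359.8 CPM (median 1605) in thalamus. It was read in 13 of 16 thalamic cells, and in 5 of 21 visual cortex cells, of which cells 33 and 51 were at 4304 and 1132 CPM and the others at most at 32.1 CPM. Its log2 ratio was 2.60 and 5.34 without visual cortex cell 33. Those 2 cells are also the ones with P2ry12 at 739 and 162 CPM, and the part of microglial RNA in this was not tested. Agt and Igsf1 were read together in 12 of 16 thalamic cells (75%, 47.6 to 92.7%) and 3 of 21 visual cortex cells (14.3%, 3.05 to 36.3%), a pair chosen after the values were seen.

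Further members of that group were the tissue inhibitor of metalloproteinases Timp4 (1164 against 284 CPM, log2 ratio 2.03, span 1.87 to 2.29) and Sparc, a secreted modulator of matrix and synapses (2462 against 1055 CPM, log2 ratio 1.22, span 1.08 to 1.89). Sparc was at 452 CPM or more in every thalamic cell, and its visual cortex median was 71.6 CPM. Kcnj10 and Itih3 were within 2-fold. Hapln1, a link protein of the hyaluronan matrix, is in the same list and was lower, at 26.9 against 474 CPM (log2 ratio -4.09, span -6.08 to -3.78), with a read in 2 of 16 thalamic and 18 of 21 cortical cells. Gfap, the intermediate filament protein, counts as higher only through thalamus cell 18. That cell was at 14899 CPM, 4 of 16 thalamic against 14 of 21 visual cortex cells had a read, and the log2 ratio of 1.14 was -0.88 without it.

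Of the 24 measured genes of glutamate, GABA and glycine handling, 8 were higher and 6 lower in thalamus (median log2 ratio -0.22, span -0.59 to 0.00), shares near the background. The main glutamate transporters of astrocytes were lower in thalamus. Slc1a2 (GLT-1) had thalamic cells from 0 to 13970.5 CPM with a median of 4979 and visual cortex cells from 1796 to 33067 CPM with a median of 14168 (log2 ratio -1.18, span -1.37 to -1.06). Slc1a3 (GLAST) had medians of 4386 and 14353 CPM (log2 ratio -1.20, span -1.51 to -1.11). The ranges of the regions overlapped for both. Glul, which turns glutamate into glutamine, was at 930.1 against 1775 CPM (log2 ratio -0.93, span -1.13 to -0.78).

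Members for GABA, glycine and related amino acids went both ways. Slc6a11 (GAT-3) had medians of 1327 CPM in thalamus and 279.9 CPM in visual cortex (log2 ratio 2.23, span 1.97 to 2.41). It was read in most cells of both regions, so the difference lay in level. Abat, which degrades GABA, was at 663 against 178 CPM (log2 ratio 1.89, span 1.67 to 2.34) and Aldh5a1, the next enzyme of that route, at 269 against 21.2 CPM (log2 ratio 3.60, span 3.04 to 5.57). Slc6a9 (GlyT1), a glycine transporter, was at 31.1 against 5.80 CPM (log2 ratio 2.24, span 1.66 to 4.31) and Slc7a10, a transporter of serine and glycine, at 663 against 220.1 CPM (log2 ratio 1.59, span 1.31 to 2.16). Gldc, the glycine-degrading decarboxylase, had no read in thalamus and was at 303 CPM in visual cortex, read in 8 of 21 cells (at least 1883-fold lower). Amt, of the same glycine cleavage system, was at 4.03 against 16.9 CPM (log2 ratio -1.83, span -3.93 to -0.93). The taurine transporter Slc6a6 was at 8.32 against 262.5 CPM (log2 ratio -4.82, span -7.74 to -2.54) and the serine synthesis enzyme Psat1 at 203 against 458 CPM (log2 ratio -1.17, span -2.14 to -0.87).

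**Figure D2:**
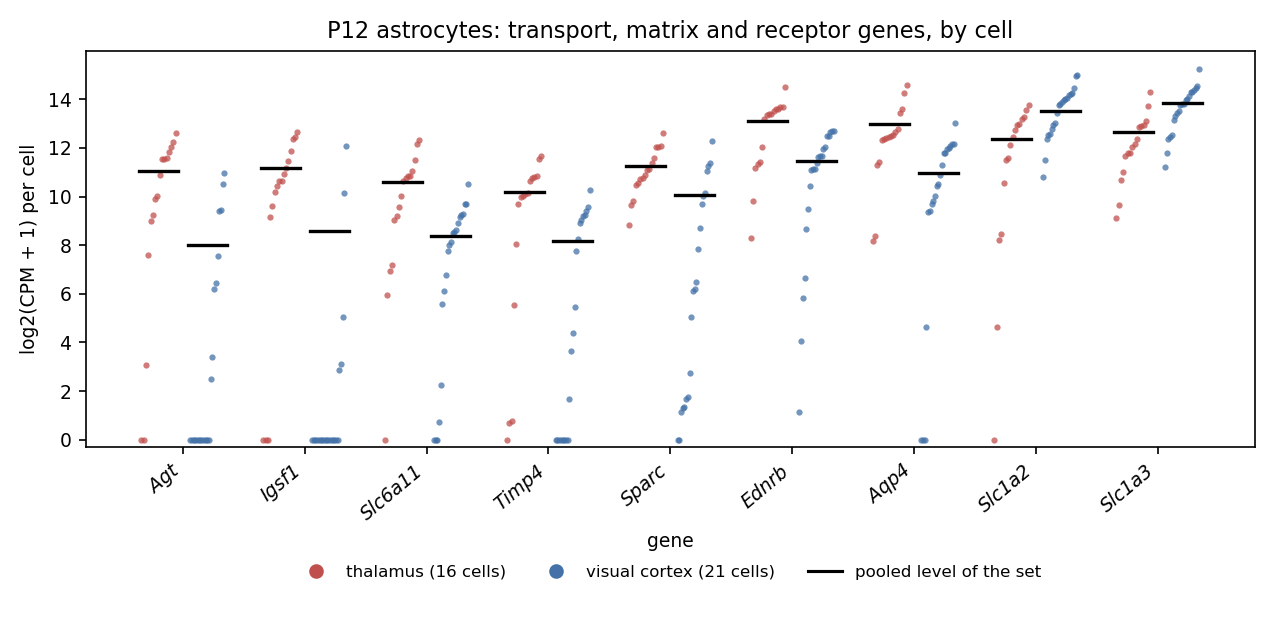
Each point is 1 cell, placed by its log2(CPM + 1) for the gene on the x axis (red, thalamus; blue, visual cortex), with the pooled level as a black bar. Agt and Igsf1 are read in more thalamic than visual cortex cells and also differ in pooled level. Slc6a11, Ednrb, Slc1a2 and Slc1a3 are read in most cells of both regions and differ in level.

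Endfoot and potassium genes were mixed, with 6 of 26 measured higher and 5 lower (median log2 ratio 0.15). The water channel Aqp4 was at 286 to 24589 CPM (median 5665) in thalamus and 0 to 8269.9 CPM (median 1476) in visual cortex (log2 ratio 2.0, span 1.70 to 2.22). Dmd, the dystrophin gene of the endfoot complex, was at 938 against 273 CPM (log2 ratio 1.78, span 1.49 to 2.17), the bicarbonate cotransporter Slc4a4 at 2511 against 849 CPM (log2 ratio 1.56, span 1.34 to 1.66) and the cation channel Trpm3 at 647 against 92.9 CPM (log2 ratio 2.79, span 2.35 to 4.0), with a read in 12 of 16 thalamic and 4 of 21 cortical cells. The inward rectifier Kcnj10 was alike in pooled level (699 against 657 CPM). Of the astrocyte markers as a whole 6 were higher, 3 lower and the rest within 2-fold (median log2 ratio 0.26, span 0.02 to 0.36). The 3 lower were Slc1a2, Slc1a3 and the glycolytic enzyme Aldoc (4286 against 8923 CPM, log2 ratio -1.06), which was -0.97 with edgeR's TMM factors. S100b, a calcium-binding protein, was at 326 against 49.2 CPM (log2 ratio 2.70, span 1.90 to 3.17).

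Receptors leaned towards thalamus, with 12 of 27 measured higher and 5 lower (median log2 ratio 0.72, span 0.39 to 1.38). Ednrb, the endothelin receptor B gene, ran from 313 to 23108 CPM (median 10619.5) in thalamus and from 1.23 to 6675 CPM (median 2648) in visual cortex (log2 ratio 1.63, span 1.42 to 1.75). Adcyap1r1, the PACAP receptor gene, was at 683 against 206.5 CPM (log2 ratio 1.72, span 1.15 to 2.0) and the adrenergic receptor Adra2a at 93.8 against 26.8 CPM (log2 ratio 1.77, span 1.39 to 2.63). Gabbr2, of the GABA-B receptor, was read in 13 of 16 against 7 of 21 cells (log2 ratio 1.23, span 0.88 to 2.44). The cannabinoid receptor Cnr1 was lower, at 11.1 against 466 CPM (log2 ratio -5.28, span -8.17 to -4.80), with a read in 3 of 16 thalamic and 8 of 21 cortical cells, and the GABA-A subunit gene Gabra4 was at 65.9 against 313 CPM (log2 ratio -2.23).

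Extracellular matrix genes were evenly divided, 8 of 26 higher and 8 lower (median log2 ratio 0.14, span -0.16 to 0.26). Basement membrane genes went both ways. Col1a2, a fibrillar collagen gene from the list of leptomeningeal markers, was read in 6 of 16 thalamic cells and no visual cortex cell (160.0 CPM, at least 1250.1-fold higher), Nid1 in 4 (54.02 CPM) and Lamc1 in 4 (107 against 0.0853 CPM), although Col1a2 and Lamc1 rested most on thalamus cell 20 (log2 ratios 5.89 and 4.25 without it). Any of the 3, a combination chosen after the values were seen, was read in 8 thalamic cells and no visual cortex cell, and in 9 and 2 cells without thinning. The laminin genes Lama5 (1.24 against 26.9 CPM, log2 ratio -3.64, span -4.80 to -2.43) and Lama2 (67.8 against 178 CPM, log2 ratio -1.38, span -2.39 to -0.54) and the collagen IV gene Col4a1 (4.35 against 18.9 CPM, log2 ratio -1.90, span -3.05 to -1.39) were lower. Col1a2 was the only one of 12 leptomeningeal markers measured. Lum had no read and Dcn, in 2 cells, stayed under 2 CPM. Endothelial Pecam1 was at 87.1 CPM in thalamus cell 6. Integrins Itga6 (256 against 58.99 CPM, log2 ratio 2.10, span 1.53 to 2.86), Itga7 (log2 ratio 4.08) and Itgb8 (328 against 109 CPM, log2 ratio 1.58, span 1.05 to 2.47) were higher. The proteoglycans Vcan (84.1 against 501 CPM, log2 ratio -2.56, span -4.52 to -1.98) and Cspg5 (182 against 425 CPM, log2 ratio -1.22, span -1.81 to -1.05) were lower, beside Hapln1. Bcan and Ncan were within 2-fold.

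Ligands and pathways of patterning were mostly read in few cells. Wnt5a, a ligand of non-canonical Wnt signalling (chromosome 14, 28504543 to 28527448), stood out, with thalamic cells from 0 to 1004 CPM (median 22.6) and a read in 9 of 16 against 2 of 21 cells (268.5 against 3.07 CPM, log2 ratio 6.05, span 5.63 to 7.64). Among the 13 measured Wnt inhibitors and targets 4 were higher and 6 lower. Dkk3, a secreted Dickkopf family protein, was read in 2 of 16 against 11 of 21 cells (1.13 against 387 CPM, log2 ratio -7.51, span -8.52 to -7.08). Sfrp5, Frzb and Wif1 counted as higher through 1 cell each, thalamus cells 10, 17 and 18. In the Hedgehog pathway (3 of 9 higher, 3 lower) Gli3, its repressor-forming factor, was read in 4 of 16 against 16 of 21 cells (53.6 against 237 CPM, log2 ratio -2.12, span -3.14 to -1.69). In the Notch pathway (5 of 14 higher, 4 lower) the receptor Notch1 was read in 4 of 16 against 16 of 21 cells (17.3 against 145.5 CPM, log2 ratio -3.00, span -6.14 to -2.63) and Notch2 was at 188 against 404.5 CPM (log2 ratio -1.11).

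FGF pathway members stood near the background, with 4 of 17 higher and 6 lower. BMP and TGF-beta pathway members counted 2 of 16 higher and 4 lower, shares below the background. Fgfr3, the astrocyte FGF receptor, did not differ by 2-fold (1349 against 1422 CPM), and Fgfr2 was lower (52.3 against 163 CPM, log2 ratio -1.62, span -2.19 to -1.38). Of 6 measured Eph receptors and ephrins 5 were lower and none higher. Ephb1 had no thalamic read and was read in 8 of 21 visual cortex cells at 39.97 CPM pooled. With no minimum level the median of that list was 0.08 instead of -3.22. Synapse-forming and pruning factors were 7 of 23 higher and 6 lower, with the glypican Gpc5 higher (355 against 112 CPM, log2 ratio 1.65, span 1.04 to 2.48) and the phagocytic receptor Mertk lower (96.4 against 261 CPM, log2 ratio -1.43), read in 7 of 16 against 18 of 21 cells. Of the 18 secreted factors measured 8 were higher and 3 lower. They included Apoe, the main lipoprotein of astrocytes, at 7385 against 3452 CPM (log2 ratio 1.10, span 0.90 to 1.25) and read in every cell, and Igfbp2 (85.8 against 18.1 CPM, log2 ratio 2.18, span 1.90 to 3.76).

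For energy metabolism, lipids and redox defence, no list had a share of members higher or lower above the background of 28.1% and 35.1%. The single genes named here are a description. Subunits of oxidative phosphorylation were level, with 30 of 33 measured within 2-fold (2 higher, 1 lower, median log2 ratio 0.24, span -0.01 to 0.36). In glycolysis, lactate and glycogen 5 of 24 were higher and 8 lower (median -0.05). The lactate transporter Slc16a1 (MCT1, chromosome 3, 104638664 to 104658462), which is also high in endothelium, was at 498 against 1.62 CPM (log2 ratio 7.57, span 6.81 to 8.58), with a read in 8 of 16 thalamic and 3 of 21 cortical cells. At least 1 of the 12 endothelial markers, Slc16a1 among them, was read in 10 of 16 thalamic and 7 of 21 visual cortex cells. Cldn5 and Flt1 had no read in any thalamic cell, while Pecam1, under the minimum level, had a log2 ratio of 2.63. The part of endothelial RNA in this was not tested. The glucose transporter Slc2a1 was at 276 against 6.91 CPM (log2 ratio 5.13, span 3.62 to 6.44), with thalamus cell 20 at 2282 CPM. Ldha was lower (311 against 699.8 CPM, log2 ratio -1.17, span -2.02 to -0.97). In cholesterol synthesis and transport 3 of 23 were higher and 4 lower (median -0.53, span -0.66 to -0.27), with 16 within 2-fold. Fatty acid oxidation had 5 of 24 in each direction, and Hadh was lower (27.8 against 292 CPM, log2 ratio -3.35, span -4.33 to -2.93). In metal and redox defence 2 of 25 were higher and 3 lower, Gstm1 among them (357 against 1366 CPM, log2 ratio -1.93, span -2.44 to -1.62).

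Hormone response genes were lower for 7 of 16 and higher for 1 (median log2 ratio -0.82, span -1.20 to -0.67). Whichever cell was left out, 4 stayed lower. Of all measured genes 35.1% were lower, and 18.1% whichever cell was left out. Slco1c1, which carries thyroxine, was read in 5 of 16 against 19 of 21 cells (115 against 1238 CPM, log2 ratio -3.42, span -6.49 to -2.98). Its thalamic reads came mostly from thalamus cell 6, at 1742 CPM. Dio2, the deiodinase that activates thyroxine, was alike in pooled level (531 against 503.7 CPM).

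**Figure D3:**
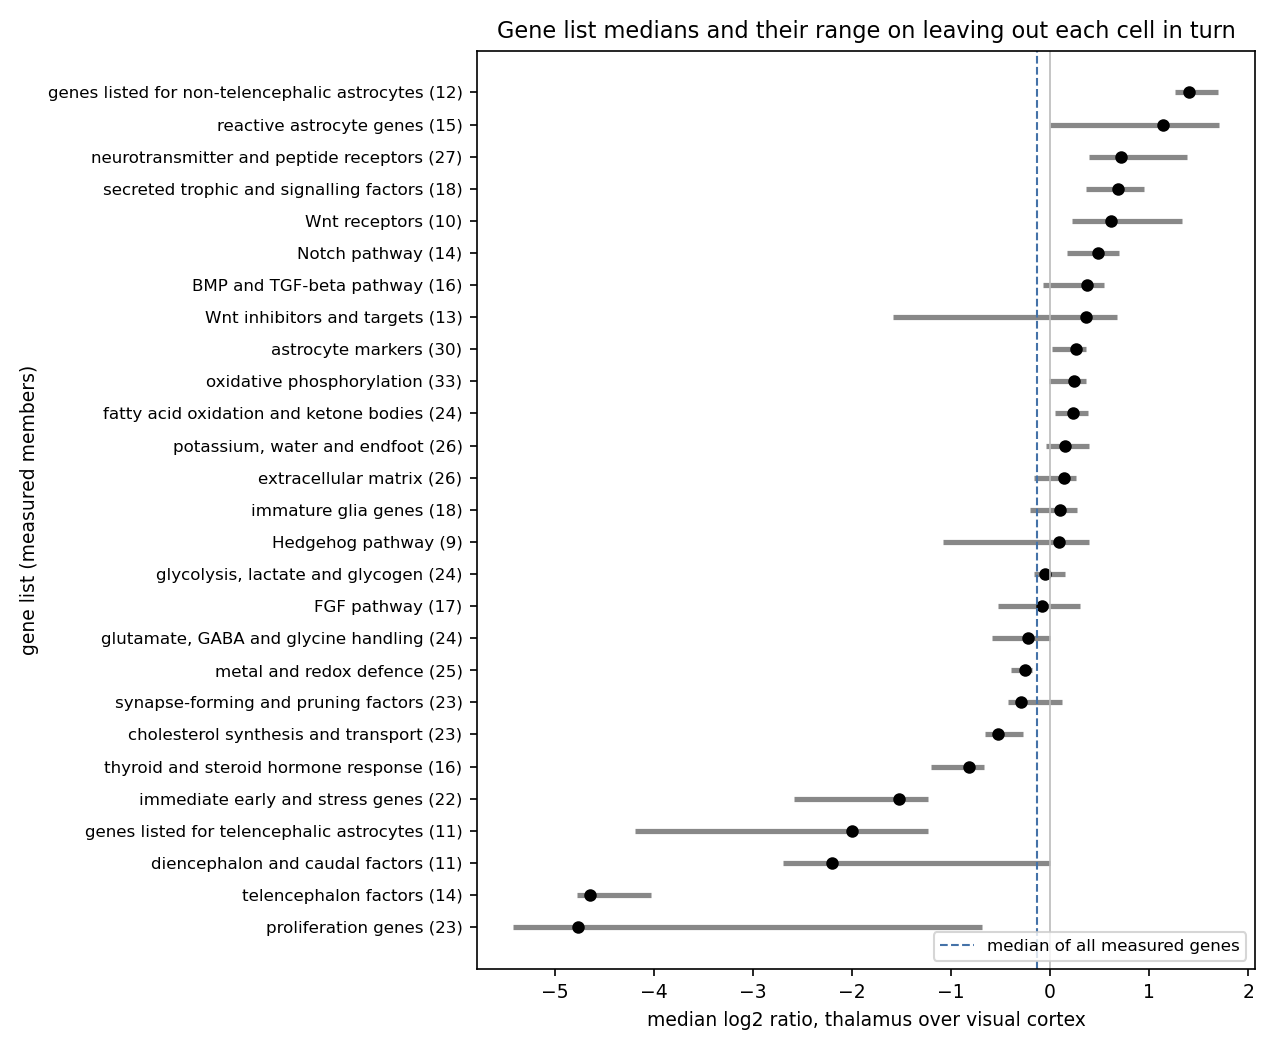
Points are the median log2 ratio (thalamus over visual cortex) of each gene list with at least 8 measured members, and grey bars run from the lowest to the highest median when each cell is left out in turn. The telencephalon factors (-4.65) and the genes of astrocytes outside the telencephalon (1.40) have short bars, while the proliferation bar reaches from -5.43 to -0.69.

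Of 22 measured immediate early and stress genes, 16 were lower and 1 was higher (median log2 ratio -1.53, span -2.59 to -1.23), and 11 stayed lower whichever cell was left out. Members with a read numbered 0 to 16 (median 5) per thalamic cell and 6 to 17 (median 11) per visual cortex cell, out of 29. Egr1 was read in 8 of 16 against 19 of 21 cells, with medians of 3.10 and 1216 CPM (log2 ratio -1.42, span -2.01 to -1.16). Jun was read in 11 against 20 cells (log2 ratio -1.56, span -1.88 to -1.23) and Nr4a1 in 4 against 11 (log2 ratio -2.25, span -2.70 to -1.92). Fos itself was within 2-fold (2842 against 3742 CPM). Dissociation and sorting of the 2 regions cannot be told apart from the region here.

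Reactive astrocyte genes counted 9 of 15 higher and 3 lower (median log2 ratio 1.14), but none stayed higher when each cell was left out in turn. Over the same 15 members the median without thalamus cell 5 was 0.00. With the 10 CPM minimum applied anew, 4 of 11 were higher without thalamus cell 5 (median 0.17). Without thalamus cell 18 it was 6 of 15 (median 0.35). Thalamus cell 5, with its ependymal markers, was the only cell with a read of Tm4sf1, Cp or Gbp2. Vim was within 2-fold (307 against 268 CPM).

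Proliferation genes were lower for 22 of 23 and higher for none, and most of this lay in 1 cell. Visual cortex cell 4 had a read of 22 of 25 members, against at most 7 in any other cell, with Ccnb1 at 4658 CPM, Top2a at 2825 CPM and Mki67 at 2163 CPM. Without it the median log2 ratio of the same 23 members was -0.69 in place of -4.77. With the 10 CPM minimum applied anew, only 10 members were measured, 8 lower and 2 higher (median log2 ratio -3.79). Mki67 was read in 5 of 21 visual cortex cells (23.8%, 8.22 to 47.2%) and 0 of 16 thalamic cells (0 to 20.6%), and in 1 thalamic cell without thinning. The 2 shares were not tested against each other. Hmgb2, a chromatin protein abundant in dividing cells, was spread more widely, read in 2 of 16 against 11 of 21 cells (2.95 against 264 CPM, log2 ratio -6.07, span -6.84 to -4.25). Immature glia genes had no common direction, 4 of 18 higher and 5 lower, and Fabp7, the brain lipid binding protein gene, was at 1272 against 720.3 CPM (log2 ratio 0.82).

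**Figure D4:**
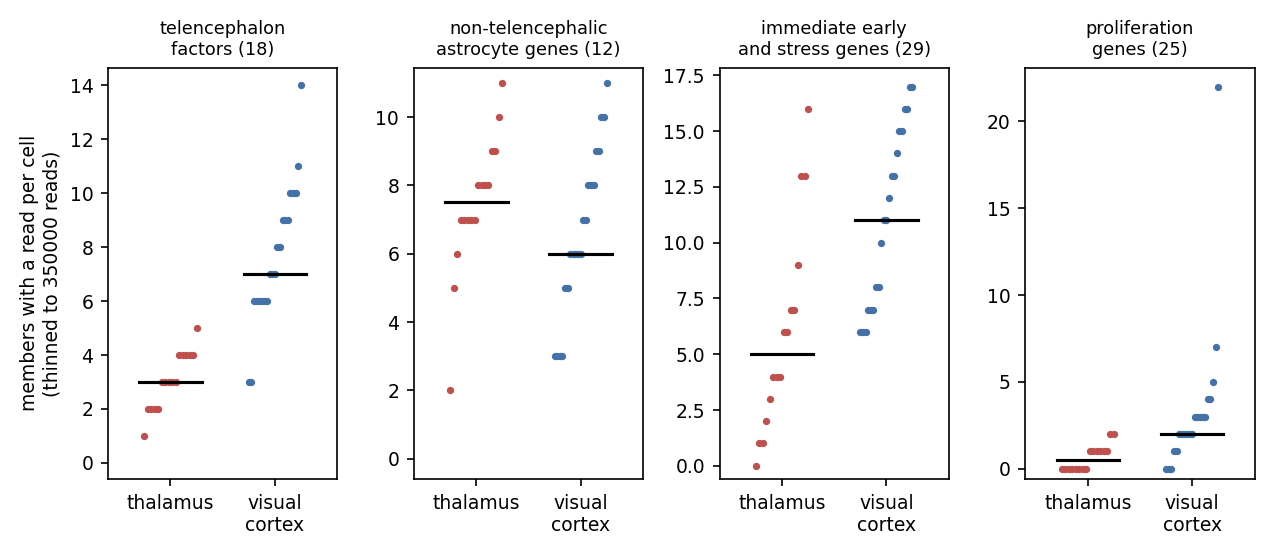
Each point is 1 cell and gives how many members of a list had a read after thinning to 350000 reads (red, thalamus; blue, visual cortex; black bar, median). Telencephalon factors have medians of 3 and 7 and immediate early genes 5 and 11, while a single visual cortex cell with 22 proliferation genes stands away from the others.

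Beyond the lists, genes were named by a rule that asked for a read in at least 50% of the cells of the higher region, a share at least 30 points above the other region, 50 CPM and a 2-fold difference whichever cell was left out. It left 48 genes higher and 92 lower. The values of the 15 largest in each direction were what chose them, so they are a description. Higher in thalamus were, besides Slc16a1, Wnt5a and Itga7, the carbonic anhydrase-related Car10 (0 reads in visual cortex, 129 CPM in thalamus, 10 of 16 cells) and Sod3, the extracellular superoxide dismutase (66.8 against 0 CPM, 9 of 16 cells). Car10 was at least 1011-fold and Sod3 at least 522-fold higher. Lgi1, a secreted synaptic protein, was read in 10 of 16 against 2 of 21 cells (187 against 7.51 CPM), the AMPA receptor auxiliary protein Shisa9 in 8 against 3 (431 against 6.48 CPM) and the matrix protein Spon1 in 9 against 4 (428 against 16.5 CPM). Abi2, a regulator of actin branching (519 against 25.2 CPM), the growth factor receptor Igf1r (128 against 5.72 CPM) and the phospholipase Plce1 (271 against 17.02 CPM) followed, with Scfd2, Klhl7, Katnal1 and Desi2 at log2 ratios of 5.88, 5.64, 4.41 and 4.32.

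Lower in thalamus by the same rule, beside Fam107a, Lhx2, Dkk3 and Hmgb2, was the peptide transporter Slc15a2, read in 1 of 16 against 15 of 21 cells (0.376 against 352 CPM, log2 ratio -8.00, span -8.23 to -7.62). Clmn was read in 1 against 14 cells (0.269 against 232 CPM), the septin Sept8 in 1 against 12 (0.0537 against 111 CPM) and the retinoid-binding protein Rlbp1 in 1 against 12 (1.29 against 317 CPM). The sialyltransferase St6galnac5, which makes gangliosides, was read in 1 against 16 cells (0.913 against 114 CPM). Rab2a, Supt6, Stx7, Plod3 and Nfyc were also among the 15, at log2 ratios of -5.96, -5.90, -5.27, -5.26 and -4.92.

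Other astrocytes of the series give some of these genes a setting, without a test and with 1 sample per group. In 19 P12 hippocampal astrocytes, also telencephalic, Lhx2 was at 48.1 CPM (14 cells) and Fam107a at 347.5 CPM (12 cells), with cells counted without thinning. Agt was at 597 CPM (14 cells) and Slc6a11 at 363 CPM (17 cells), both between the 2 regions at P12, while Igsf1 was at 16.9 CPM (4 cells) and Meis1 had no read. In 17 E18.5 cells titled mThal, whose source field names visual cortex instead, Lhx2 was at 0.295 CPM (1 cell), Fam107a at 72.5 CPM (2 cells), Agt at 745 CPM (8 cells) and Slc6a11 at 940.0 CPM (12 cells), but Igsf1 was at 2.36 CPM (1 cell). In 10 adult visual cortex astrocytes Fam107a was at 1169 CPM and Lhx2 at 276 CPM (5 cells each), Agt had no read and Igsf1 was at 4.07 CPM (1 cell). Some genes named by the rule as higher in thalamus were also read in other telencephalic sets. Sod3 was at 150.6 CPM (2 cells) and Igf1r at 543 CPM (4 cells) in adult visual cortex, against 66.8 and 128 CPM in P12 thalamus. Car10 was at 92.0 CPM (4 cells) in hippocampus, against 129 CPM. In adult visual cortex Car10, Wnt5a, Shisa9, Spon1 and Itga7 had no read. Igsf1 was highest in the P12 thalamic set and Fam107a in the adult visual cortex set among these 5 groups, which differ in age and depth. In 29 P12 microglia Fam107a was at 0.221 CPM and Agt at 0.0737 CPM.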

How the data were processed

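The authors deposited raw counts of reads per gene for 333 single cells in 1 table; STAR, HTSeq version 0.6.0 and mm10 are named in the submitters' processing notes, with strand setting not given in the sources used here. Of 22074 genes, 21274 matched a mouse symbol, and 4 list genes had no matching row. Cells were grouped by title and cell type label. Counts were summed per region, divided by the total (CPM) and compared as log2 ratios with 1 CPM added (Python 3.11, numpy, scipy), checked on simulated counts. No doublet caller was run. Named genes were the 15 largest in each direction with 50 CPM, a read in 50% of cells, 30 points more cells and a 2-fold ratio whichever cell was left out, ribosomal and predicted genes aside, and any member of 38 lists; some genes counted in the lists and under the rule are not reported here by name. The compared groups, lists and rule were chosen with earlier results of these data known. Alternatives were edgeR 4.0.16 TMM factors, median-of-ratios factors, equal weight per cell, a pseudocount of 10 CPM, minimum levels of 50 CPM or none, a 4-fold limit, thinning to 700000 reads and leaving out cells. Coordinates are those of the RefSeq table (GRCm38.p6).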

Additional observations from a re-analysis of the deposited data

How the results depend on the processing

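The number of genes higher and lower stayed within 1.5 times of 2527 and 3159 under every alternative run except 2 that change the definition itself. With a minimum of 50 CPM there were 1464 higher and 1673 lower, and at 4-fold 1548 higher (the 2144 lower were within 1.5 times). Leaving out 1 cell gave 2360 to 2623 higher and 2990 to 3303 lower. Without the 4 cells with markers of another class there were 2602 higher and 3069 lower. Chosen after seeing the data, leaving out the 5 visual cortex cells with a read of Mki67 gave 2880 higher and 2765 lower, and leaving out the 5 under 700000 reads gave 2628 and 3115. The median of all measured genes was -0.13, and -0.03 with edgeR's TMM factors. No paired analysis was possible because each region is 1 sample and the results come from no test. Thinning to 700000 reads, which 16 visual cortex cells reached, left 57 genes higher and 188 lower by the naming rule in place of 48 and 92. The median of diencephalon and caudal factors turned from -2.20 to 0.79 with no minimum and to 0.71 without the Mki67 cells, and that of Eph receptors and ephrins from -3.22 to 0.08 with no minimum. A pseudocount of 10 CPM brought the telencephalon factors from -4.65 to -1.99 and the proliferation genes from -4.77 to -2.38. Genes listed for astrocytes outside the telencephalon went from 1.40 to 1.30. Gfap ranged from -0.88 to 1.48 on leaving out 1 cell, and Mki67 was at 0.08 without the cells that had it. No read in 16 or 21 cells allows a share of cells with a read of up to 20.6% or 16.1%, for counting error only, and sets no limit on cells that express the gene.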
